A study of Mus musculus with 9 samples.

Results

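Plasmacytoid DC (pDC) were compared with CD8-positive conventional DC (cDC1) across the transcriptome of the resting mouse spleen. The comparison used 6 of the 9 libraries of the series, namely the 3 pDC libraries and the 3 cDC1 libraries, chosen by the subset named in their labels. The other 3 libraries, from CD8-negative conventional DC (cDC2), entered the fit to help estimate the spread between libraries, and their levels are given only beside results. All cells came from C57BL/6J mice at steady state, without treatment or genetic change, and ages were not used here. Each library was made from the pooled spleens of 15 to 17 mice, so a library is 1 sort of a pool and not 1 animal. Cells carrying CD3, Thy1, Ly6G or TER-119, among other markers, were first depleted. In the paper's results, the pDC were then gated as CD11c intermediate, CD317 high and CD11b negative. The cDC1 were gated there as CD11c high, CD317 low, CD8 positive and CD11b negative. The antibodies that its methods list for the sort are against CD8, CD11b, CD11c, CD45RA and CD49b, without CD317. Libraries with the same replicate number carry the same date code, and they are called a pair below.

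The pDC are known for sensing viral nucleic acids in endosomes through Toll-like receptors (TLR) and for releasing large amounts of type I interferon. The cDC1 are known for taking up dying cells and presenting their antigens on MHC class I to CD8 T cells. The E protein TCF4 maintains pDC identity, whereas BATF3, ID2 and IRF8 are needed for cDC1. These statements are background and not results of these data.

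Poly(A) RNA was sequenced as stranded, single-end libraries of 75 bases. The authors deposited raw read counts for 39179 genes. Total counts ranged from 15806597 to 32453789 per library, and replicate 3 had the lowest total in both subsets. Levels are given in CPM, counts divided by library size as scaled by the TMM method, with the values of replicates 1, 2 and 3 in that order, and the floor of 3 counts in a library corresponded to 0.0908 to 0.203 CPM, which covers counting error only. The spread between replicates exceeded sampling noise in every subset (chi-square divided by its degrees of freedom, 9.93 to 64.4). The first principal component took 68% of the variance and the second 19.6%. In these bulk libraries, a transcript carried by fewer cells and a transcript present at a lower level per cell cannot be told apart.

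The test was made on 13819 genes with enough counts. At an adjusted p under 0.05 in edgeR's quasi-likelihood test, 6718 genes (48.6%) differed between pDC and cDC1. Of these, 3352 genes (24.3% of those tested) were higher in pDC and 3366 (24.4%) were lower in pDC. The median log2 fold change over all genes tested was 0.02, and it is the value beside which the medians of gene lists are read below. A difference of at least 4-fold was found for 1173 of the genes higher in pDC and 1199 of the genes lower in pDC. A difference of at least 64-fold was found for 216 and 140 genes. The levels of the 3 pDC libraries and the 3 cDC1 libraries did not overlap for 8104 genes (58.6%). Lists of genes are described by how many members passed this test in each direction. These counts are to be read beside the 24.3% higher and 24.4% lower of all genes tested. Wherever none of a list is said to be called in a direction with all libraries, the count was also 0 at an unadjusted p under 0.05, with DESeq2 and with limma. Replicates of a subset carry different date codes, and p-values measure the spread between these pools.

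**Figure D1:**
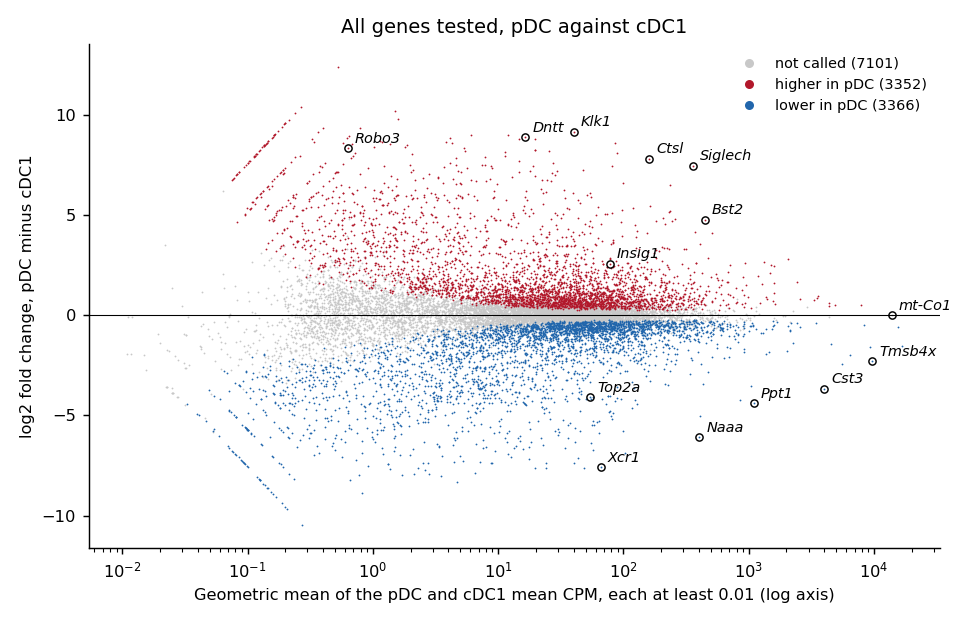
Each point is 1 of the 13819 genes tested, with the geometric mean of its levels in the 2 subsets (CPM, log axis) against its log2 fold change (pDC minus cDC1); red points were called higher in pDC (3352), blue points lower (3366) and grey points were not called. Calls reached from Klk1 near 9 down to Xcr1 near -8, while mt-Co1 lay at 0 among the highest levels, and the diagonal streaks on the left are genes at or near 0 counts in 1 subset, whose fitted fold change depends on the prior count.

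The markers followed the labels. Siglech (ENSMUSG00000051504, chr7:55768178-55778925 in GRCm38), which encodes a lectin receptor of mouse pDC, stood at 4815, 5110 and 4330 CPM in pDC and at 33.9, 25.8 and 21.5 CPM in cDC1. The level was 176-fold higher in pDC (log2 fold change 7.45 ± 0.30, SE, adjusted p = 8.98e-08). Xcr1 (ENSMUSG00000060509, chr9:123852315-123862029), the chemokine receptor of cDC1, stood at 929, 933 and 947 CPM in cDC1 and at 8.90, 1.37 and 3.65 CPM in pDC, a level 202-fold higher in cDC1 (log2 fold change -7.60 ± 0.61, adjusted p = 5.21e-06). The groups did not overlap for either gene. Bst2 (chr8:71534255-71537456), which encodes the CD317 named in the gate, was 27.1-fold higher in pDC, and because of that gate it is no finding.

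Clec9a (ENSMUSG00000046080, chr6:129408862-129424763), a receptor for dead cells and a marker of cDC1, separated the subsets far less. Its level was 597, 634 and 642 CPM in cDC1 and 242, 249 and 264 CPM in pDC, and 50.2 CPM on average in cDC2. The groups did not overlap, and the difference was 2.48-fold (log2 fold change -1.31 ± 0.13, adjusted p = 2.07e-05). Cd8a, which was also part of the cDC1 gate, stood at 360, 274 and 379 CPM in pDC against 1310, 1317 and 1676 CPM in cDC1.

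All 17 genes of the pDC identity list were higher in pDC, with a median log2 fold change of 5.88. All 17 tested genes of the cDC1 identity list were lower, with a median of -5.46. Both lists hold genes known for marking these subsets, so their direction is no independent evidence. Klk1 (chr7:44225360-44229618), a tissue kallikrein, was the member with the largest difference, at 958, 915 and 983 CPM in pDC and 2.19, 0.917 and 1.96 CPM in cDC1. Its neighbour in the kallikrein family, Klk1b27, stood at 163, 152 and 132 CPM in pDC and at most at 0.619 CPM in cDC1. Reads of such close paralogs can be split between them, so the value of each is uncertain. Cox6a2, a subunit of cytochrome c oxidase known from heart and skeletal muscle, stood at 439, 412 and 409 CPM in pDC and 1.24, 0.959 and 0.542 CPM in cDC1. Ly6d, Ccr9, Pacsin1, Atp1b1, Smim5 and Upb1 were also higher in pDC in every pair.

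On the cDC1 side, Gcsam stood at 330, 354 and 378 CPM in cDC1 and at 3.48, 0.862 and 0.589 CPM in pDC. Itgae, which encodes CD103, stood at 168, 129 and 168 CPM in cDC1 and at no more than 1.85 CPM in pDC. Wdfy4, which is needed for cross-presentation by cDC1, kept a level of 318, 317 and 287 CPM in pDC against 3474, 3990 and 3257 CPM in cDC1. The groups did not overlap for any of the 3 genes. Several cDC1 identity genes therefore had an intermediate level in pDC, among them Clec9a, Wdfy4 and Btla, while Xcr1, Gcsam and Itgae had almost none.

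**Figure D2:**
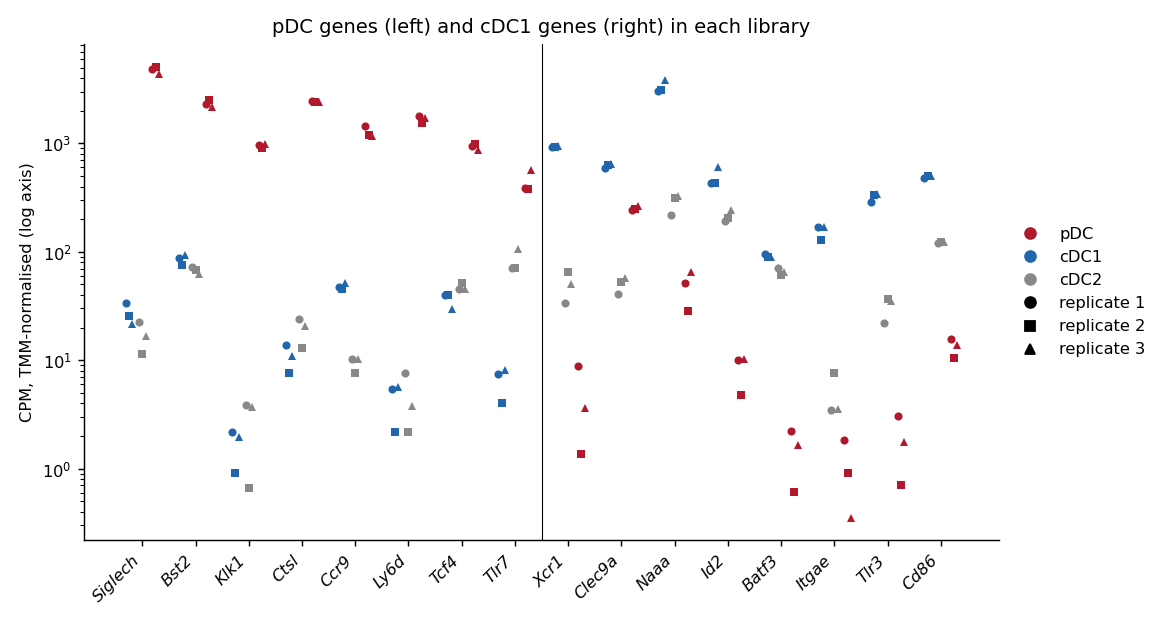
Points are the levels (CPM, log axis) of 8 genes higher in pDC and 8 genes higher in cDC1, in each of the 9 libraries, coloured by subset and with a symbol for each replicate. For all 16 genes the 3 red pDC points lie apart from the 3 blue cDC1 points; Clec9a shows the smallest gap, at 242 to 264 CPM against 597 to 642 CPM.

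The promoters of the marker Siglech and of Xcr1 are printed here because E proteins such as TCF4 bind the E-box, whose letters are CANNTG. The window runs from 250 bases before to 50 bases after the start of the gene in RefSeq (GRCm38.p6), and capitals mark each E-box. The promoter of Siglech lies at chr7:55767934-55768233 on the plus strand, and that of Xcr1 at chr9:123861980-123862279 on the minus strand.
Siglech: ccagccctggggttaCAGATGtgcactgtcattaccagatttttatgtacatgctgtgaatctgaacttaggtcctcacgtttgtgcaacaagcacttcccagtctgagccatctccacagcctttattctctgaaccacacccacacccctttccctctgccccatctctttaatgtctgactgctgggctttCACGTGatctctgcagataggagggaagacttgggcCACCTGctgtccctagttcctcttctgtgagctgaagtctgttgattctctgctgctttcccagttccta
Xcr1: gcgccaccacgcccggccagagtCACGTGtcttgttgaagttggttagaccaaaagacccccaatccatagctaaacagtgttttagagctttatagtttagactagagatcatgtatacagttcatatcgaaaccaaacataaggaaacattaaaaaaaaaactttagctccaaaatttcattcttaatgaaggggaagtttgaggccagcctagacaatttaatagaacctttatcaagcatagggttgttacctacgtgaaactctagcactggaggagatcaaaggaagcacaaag
Siglech held 3 E-boxes and Xcr1 held 1. An E-box was found in 9 of the 12 pDC identity genes with a promoter in the table (75%) and in 11 of 15 cDC1 identity genes (73.3%). Among all 27025 genes in the table it was found in 75%. The more specific letters CAGNTG, which are a subset of the E-box, were found in 66.7% of the pDC identity genes, 46.7% of the cDC1 identity genes and 54.6% of all genes. A match is a description and does not show that a factor binds.

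Genes for transcription factors of the pDC fate were mostly higher in pDC. Of 15 tested, 12 were higher, 1 was lower and 2 were not called. Runx2 stood at 547, 618 and 625 CPM in pDC and at 16.5, 15.2 and 15.2 CPM in cDC1 (log2 fold change 5.25 ± 0.13, adjusted p = 2.76e-08). Ets1 differed 39.8-fold and Spib 36.7-fold, and Tcf4 stood at 942, 980 and 861 CPM in pDC against 39.7, 39.8 and 29.5 CPM in cDC1. The groups did not overlap for these factors. Smaller differences were found for Bcl11a (3.74-fold), Ikzf1 (1.92-fold) and Irf8 (1.66-fold), which both subsets need. Irf8 stood at 4032, 4146 and 4553 CPM in pDC, 2422, 2435 and 2811 CPM in cDC1 and 269 CPM on average in cDC2. Cbfa2t3, a corepressor of the ETO family, was the member lower in pDC, at 106, 99.2 and 77.4 CPM against 196, 214 and 125 CPM in cDC1, and without pDC replicate 3 a count of 2 was lower.

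Of 12 tested transcription factor genes of the cDC1 and conventional DC fate, 9 were lower in pDC, 2 were higher and 1 was not called. Id2 (chr12:25093799-25097140), an inhibitor of E proteins, stood at 429, 433 and 601 CPM in cDC1 and at 4.82 to 10.3 CPM in pDC (log2 fold change -5.86 ± 0.31, adjusted p = 3.84e-07). Batf3 differed 61.0-fold and Zfp366, a zinc finger gene of conventional DC also known as DC-SCRIPT, 86.4-fold. Irf4 and Klf4, which are associated with cDC2, were the 2 members higher in pDC, by 3.54-fold and 2.26-fold. Their mean levels in cDC2 were 69.5 and 71.9 CPM. Nfil3 was lower in pDC (log2 fold change -1.37, adjusted p = 0.03), but this call was lost without cDC1 replicate 3 (log2 fold change -0.94), pDC replicate 1 (-1.31) or pDC replicate 2 (-1.37).

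Single receptors for nucleic acids differed in opposite directions. Of 17 genes for nucleic acid sensing by TLR, 7 were higher in pDC (41.2%, beside 24.3% of all genes). Another 5 were lower (29.4%, beside 24.4% of all genes) and 5 were not called. Tlr7 (chrX:167304929-167330558), the receptor for single-stranded RNA, stood at 384, 382 and 563 CPM in pDC and at 7.5, 4.0 and 8.06 CPM in cDC1 (log2 fold change 6.10 ± 0.33, adjusted p = 4.76e-07). Tlr9, the receptor for unmethylated CpG DNA, was higher by only 3.04-fold, at 348, 264 and 248 CPM in pDC and 94.8, 86.3 and 102 CPM in cDC1. Slc15a4, a lysosomal transporter needed for TLR7 and TLR9 responses in pDC, was 4.44-fold higher, and the chaperones Unc93b1 and Cnpy3 were 1.53-fold and 1.62-fold higher. The groups did not overlap for Tlr7, Tlr9 or Slc15a4.

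In the other direction, Tlr3, the receptor for double-stranded RNA, stood at 288, 332 and 344 CPM in cDC1 and at 3.03, 0.710 and 1.77 CPM in pDC. Tlr13, a sensor of bacterial ribosomal RNA, stood at 120, 125 and 108 CPM in cDC1 and at 4.36, 1.52 and 8.66 CPM in pDC. Ticam1, the adaptor of TLR3, was 1.65-fold lower in pDC. The shared adaptor Myd88 was not called, at 131, 126 and 153 CPM in pDC and 118, 118 and 142 CPM in cDC1, and neither were Irak1 and Traf6. Tlr11 and Tlr12 both recognise profilin of Toxoplasma. Tlr11 was 176-fold higher in cDC1, whereas Tlr12 stood at 208, 188 and 214 CPM in pDC and 189, 175 and 220 CPM in cDC1 (log2 fold change 0.06 ± 0.12, adjusted p = 0.689). Of 11 surface TLR genes and partners, 3 were higher in pDC and 3 were lower, or 5 lower without pDC replicate 3. Each count of 3 was 27.3% of the list, near the 24.3% higher and 24.4% lower of all genes. Among them, Cd180 and Ly86, which encode a receptor complex related to TLR4, were 3.32-fold and 2.77-fold higher in pDC, and Tlr1 was 5.20-fold lower.

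Genes of antigen presentation by MHC class II were lower in pDC in 11 of 12 cases. H2-Eb1 stood at 13184, 12157 and 13031 CPM in cDC1 and at 2520, 2349 and 2232 CPM in pDC, a 5.40-fold difference. Ciita, the master activator of these genes, stood at 813, 922 and 536 CPM in cDC1 and at 175, 171 and 141 CPM in pDC. H2-Ob, a modulator of peptide loading, differed 10.2-fold, while its partner H2-Oa differed 1.3-fold. The protease Ctss, which cuts the invariant chain, was the exception and was 1.72-fold higher in pDC. The median log2 fold change of the list was -1.58.

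Presentation by MHC class I was not uniform. Of 19 genes, 6 were higher in pDC and 10 were lower, with a median log2 fold change of -0.55. The classical heavy chain H2-K1 stood at 4938, 5031 and 4861 CPM in pDC and at 2753, 2281 and 2771 CPM in cDC1 (log2 fold change 0.93 ± 0.10, adjusted p = 3.93e-05), and H2-D1 was 1.35-fold higher. The peptide transporters Tap1 and Tap2 were 1.90-fold and 1.84-fold lower in pDC, and the immunoproteasome subunits Psmb8 and Psmb9 1.69-fold and 2.39-fold lower. The count of 6 higher genes fell to 3 without cDC1 replicate 1 and to 3 without cDC1 replicate 2.

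Costimulators that differed were mostly lower in pDC. Of 15 costimulators and checkpoint ligands, 8 were lower in pDC and 2 were higher. Cd86, which engages CD28 on T cells, stood at 481, 498 and 501 CPM in cDC1 and at 15.7, 10.5 and 13.8 CPM in pDC, a 36.9-fold difference. Cd83, Cd80 and Cd40 differed 39.5-fold, 25.6-fold and 8.57-fold. The exceptions were Cd200, an inhibitory ligand, and Lgals9, a galectin, at 4.07-fold and 4.03-fold higher in pDC. Cd48 was not called, at 222, 202 and 263 CPM in pDC and 216, 205 and 283 CPM in cDC1.

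Of 20 cytokine and chemokine genes, 10 were lower in pDC and 2 were higher, and 4 were higher with the replicate block. Cxcl9, a ligand that draws CXCR3-bearing T cells, stood at 609, 559 and 607 CPM in cDC1 and at 7.87, 1.98 and 6.54 CPM in pDC. Il12b, which encodes the p40 subunit of IL-12, was 97.8-fold lower in pDC, Ccl22 76.1-fold and Il15 56.2-fold. Tgfb1 was the member with a steady higher level, at 399, 429 and 465 CPM in pDC against 291, 303 and 322 CPM in cDC1. Ccl4 was called higher as well, but its level was 11.8, 15.5 and 74.4 CPM in pDC and 3.02, 2.84 and 12.1 CPM in cDC1. The highest value in each subset was replicate 3, and the groups overlapped, while within each of the 3 pairs pDC were higher. With the replicate block the log2 fold change was 2.35 (adjusted p = 1.66e-05 in edgeR). Without the block, the call was lost without pDC replicate 3 (log2 fold change 1.23), cDC1 replicate 1 (2.20) or cDC1 replicate 2 (2.19).

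Receptors for cytokines differed in both directions. Of 27 cytokine receptor genes, 14 were higher in pDC and 8 were lower. Lifr, the receptor for leukaemia inhibitory factor, stood at 169, 221 and 164 CPM in pDC and at 2.91, 2.38 and 2.98 CPM in cDC1 (log2 fold change 6.07 ± 0.21, adjusted p = 4.06e-08). Il7r, the receptor chain for IL-7, differed 39.3-fold and Csf2rb2, the mouse beta chain for IL-3, 9.81-fold. The receptor chains for type I interferon, Ifnar1 and Ifnar2, were 3.11-fold and 4.87-fold higher in pDC. The receptor chains for interferon gamma went the other way, with Ifngr1 at 76.7, 58.1 and 67.8 CPM in pDC and 783, 800 and 665 CPM in cDC1, and Ifngr2 1.52-fold lower. Flt3, the receptor on which all DC depend, was 1.43-fold lower in pDC, and Kit, the receptor for stem cell factor, 11.9-fold lower.

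Of 16 chemokine and lipid guidance receptors, 8 were higher in pDC and 2 were lower. Ccr9, the receptor for CCL25 of gut and thymus, stood at 1432, 1184 and 1165 CPM in pDC and at 47.5, 45.3 and 51.3 CPM in cDC1. S1pr4 differed 9.79-fold and Ccr2 3.44-fold. Ccr7, which guides DC to lymph nodes, was 15.5-fold lower in pDC, at 12.2, 8.26 and 14.6 CPM. The groups did not overlap for these genes.

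Genes known from lymphoid cells were mostly higher in pDC. Of 16 tested, 13 were higher in pDC and none was lower, with a median log2 fold change of 4.23. Without pDC replicate 3, 1 was lower, and with 10 counts required in every library 8 were higher. Dntt (chr19:41029275-41059525), the terminal transferase that adds bases at V(D)J joints, stood at 370, 351 and 375 CPM in pDC and at 1.24, 0.375 and 0.609 CPM in cDC1 (log2 fold change 8.88 ± 0.60, adjusted p = 1.81e-06). Rag1, the recombinase, was low but present in pDC, at 2.54, 2.84 and 1.94 CPM, and in cDC1 it was counted only in replicate 1, at 0.0364 CPM. Blnk, an adaptor of B cell receptor signalling, stood at 290, 311 and 264 CPM in pDC against 3.57, 3.34 and 4.74 CPM in cDC1. Cd28, Cd4 and Cd7, known from T cells, differed 92.9-fold, 34.8-fold and 9.74-fold. Rag2, Ebf1, Igll1 and Ptcra did not have enough counts to be tested.

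Immunoglobulin transcripts were also higher in pDC. Igkc, the kappa constant region, stood at 952, 1523 and 814 CPM in pDC and at 49.5, 33.7 and 32.4 CPM in cDC1. Ighm was 6.21-fold higher and the joining chain Igj stood at 215, 454 and 345 CPM in pDC against 11.8, 10.7 and 9.28 CPM in cDC1. Of 126 variable segments of the heavy, kappa and lambda chains that were tested, 112 were called higher in pDC, none was called lower and 14 were not called, and all 126 had a positive fold change. Summed over these segments, the level was 976, 1930 and 967 CPM in pDC, 55.1, 43.0 and 34.2 CPM in cDC1 and 88.9, 107 and 62.1 CPM in cDC2. The highest pDC value was replicate 2. Reads of variable segments can be shared between near-identical copies, so the single segments are uncertain. The grouping of these segments was made after their values were seen.

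Markers of B and plasma cells are given beside these values. All 4 B cell markers tested were higher in pDC, with a summed level of 224 to 340 CPM in pDC and 38.8 to 49.6 CPM in cDC1. Of this list, Pax5 did not have enough counts to be tested and was at most at 0.405 CPM in any of the 6 libraries, while Cd79a stood at 2.54, 4.11 and 0.412 CPM in pDC and 0.255, 0.209 and 0.203 CPM in cDC1. Of the plasma cell markers, 5 of 6 tested were higher in pDC, with a summed level of 966 to 1750 CPM in pDC and 40.1 to 70.4 CPM in cDC1. Sdc1, which encodes CD138, stood at 49.5, 47.6 and 44.1 CPM in pDC and at no more than 0.546 CPM in cDC1. The calls of 2 of the 4 B cell markers were lost without cDC1 replicate 1 or with limma. With 10 counts required in every library, 1 B cell marker and 3 plasma cell markers were called higher. Prdm1, the regulator of plasma cell fate, was not called, at 0.696, 0.608 and 0.236 CPM in pDC and 0.984, 0.792 and 0.474 CPM in cDC1. The part of such cells in the immunoglobulin levels was not tested. The call of Cd79a was lost without cDC1 replicate 1 (log2 fold change 3.48), 2 (3.32) or 3 (3.28) and without pDC replicate 1 (3.31) or 2 (2.70), and was kept without pDC replicate 3 (3.85).

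**Figure D3:**
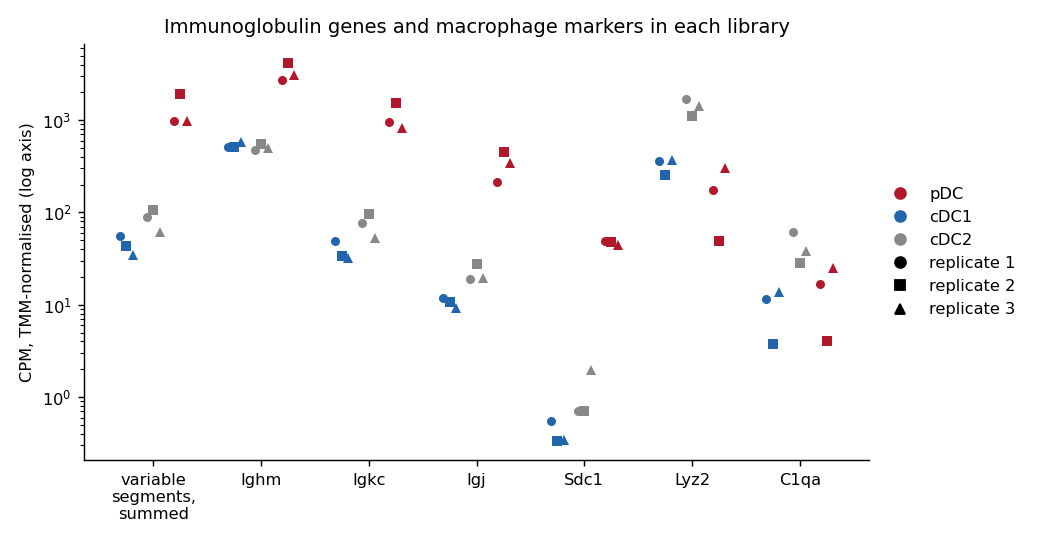
Points are levels (CPM, log axis) in each of the 9 libraries, coloured by subset and with a symbol for each replicate, for the sum of the 126 immunoglobulin variable segments, for 4 genes of antibody-forming cells and for the macrophage genes Lyz2 and C1qa. The pDC points of the segments (967 to 1930 CPM) lie above all others; for Lyz2 and C1qa the pDC and cDC1 points overlap and replicate 2 is the lowest.

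Genes of cell division were uniformly lower in pDC. All 38 genes of cell cycle and DNA replication were lower in pDC, with a median log2 fold change of -3.42. Top2a (chr11:98992943-99024189), the topoisomerase of dividing cells, stood at 231, 287 and 158 CPM in cDC1 and at 16.3, 10.7 and 12.1 CPM in pDC (log2 fold change -4.11 ± 0.25, adjusted p = 8.86e-07). Its mean in cDC2 was 255 CPM, so the level of cDC2 lay within the range of cDC1. The mitotic kinase Plk1 differed 26.8-fold, the cyclin Ccnb2 21-fold and the kinase Cdk1 20.5-fold.

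Among the replication genes of this list, the helicase subunits Mcm2 and Mcm5 were 2.73-fold and 8.65-fold lower in pDC, and the sliding clamp Pcna 1.95-fold. E2f1 was the member with the smallest difference, at 27.7, 25.2 and 22.8 CPM in pDC and 31.5, 32.4 and 41.9 CPM in cDC1, and its call was lost without cDC1 replicate 3 (log2 fold change -0.38), pDC replicate 2 (-0.50) or pDC replicate 3 (-0.41). Mki67 had a wide spread in cDC1, at 118, 268 and 47.0 CPM, yet its pDC values of 11, 12.3 and 2.42 CPM lay below all of them. The replication-dependent histone genes, which lack a poly(A) tail and are poorly captured by these libraries, gave 3 higher, 4 lower and 15 not called of 22, and 2 lower without cDC1 replicate 1 or pDC replicate 2.

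Cholesterol synthesis went the other way. Of 21 genes of this pathway and its control, 18 were higher in pDC (21 with the replicate block) and none was lower, with a median log2 fold change of 1.32. Insig1 (chr5:28071363-28078662), a target and regulator of the sterol sensor, stood at 185, 180 and 203 CPM in pDC and at 31.3, 31.4 and 33.0 CPM in cDC1 (log2 fold change 2.57 ± 0.13, adjusted p = 2.24e-07). The squalene epoxidase Sqle differed 3.58-fold and Dhcr7, a reductase of its late steps, 4.65-fold. All 21 genes had a higher level in pDC in each of the 3 pairs. Means of cDC2 lay near those of cDC1 for Insig1 (34.1 CPM) and Sqle (24.6 CPM).

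**Figure D4:**
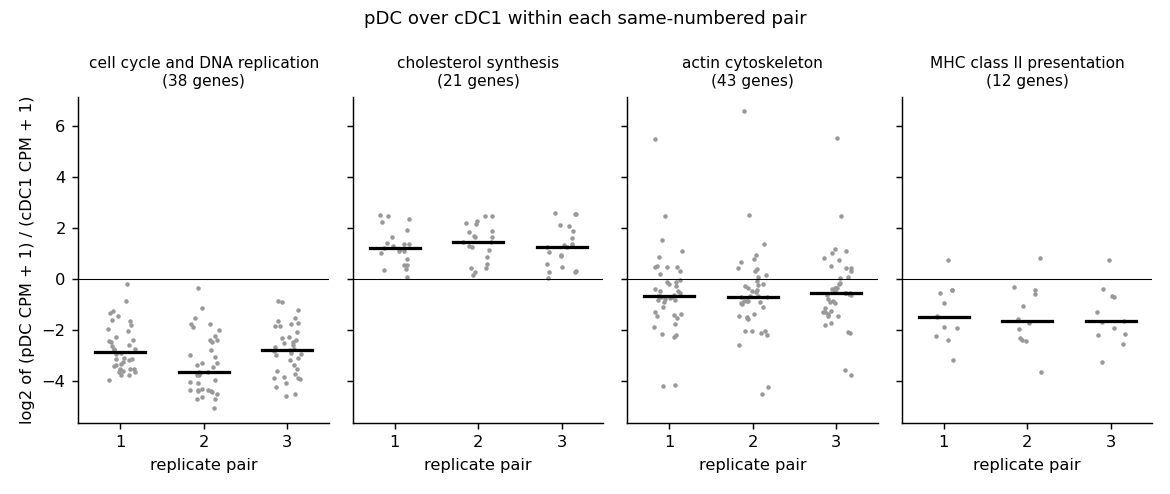
Grey points are single genes of 4 lists, plotted as the log2 ratio of pDC to cDC1 (CPM plus 1) within each same-numbered pair, and black bars are medians over the list. All 38 cell cycle genes lie below 0 and all 21 cholesterol genes above 0 in each pair, with medians of -2.84, -3.63 and -2.75 and of 1.21, 1.45 and 1.25; 30 of 43 actin genes and 11 of 12 MHC class II genes were lower in every pair.

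Members of the secretory machinery that differed were mostly higher in pDC. Of 32 genes of translocation and N-glycosylation in the endoplasmic reticulum (ER), 13 were higher and 1 was lower. Of 34 genes of ER folding and the unfolded protein response, 16 were higher and 6 were lower. Of 31 genes of ER to Golgi traffic, 11 were higher and 1 was lower, and 17 were higher with the replicate block. With the replicate block 2 were lower in the first and in the last of these lists. The medians were 0.28, 0.28 and 0.26, so the typical gene differed little. Without replicate 1 in either subset, the counts of higher genes were 6, 10 and 7. Xbp1, the transcription factor of secretory cells, stood at 333, 373 and 357 CPM in pDC and at 100, 102 and 132 CPM in cDC1, a 3.18-fold difference. Its activator Ern1 differed 2.40-fold, and Creb3l2 and its target Sec24d 4.76-fold and 3.61-fold. Sdf2l1, a partner of chaperones, was 3.79-fold lower in pDC, at 59.2, 52.8 and 77.7 CPM against 227, 213 and 278 CPM in cDC1. The chaperone Hspa5 was not called, at 1406, 1586 and 1507 CPM in pDC and 1711, 1674 and 1668 CPM in cDC1, and with the replicate block it was called lower (log2 fold change -0.17, adjusted p = 0.0452 in edgeR).

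Most tRNA synthetase genes were lower in pDC. Of 20 cytosolic tRNA synthetases, 14 were lower and 2 were higher, with a median log2 fold change of -0.55. Gars, for glycine, stood at 66.6, 54.8 and 64.6 CPM in pDC and at 142, 147 and 176 CPM in cDC1. Vars and Wars, for valine and tryptophan, were the exceptions, at 1.39-fold and 1.34-fold higher in pDC. Of 85 cytosolic ribosomal protein genes, 33 were lower, 3 were higher and 49 were not called, with a median of -0.30. With the replicate block, 54 were lower. Rpl3l, a paralog of Rpl3 known from muscle, was among the 3 higher genes at only 2.00, 2.33 and 1.65 CPM in pDC. Ribosomal protein genes have many processed copies, to which reads may be lost, so single members of this list are uncertain.

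Most genes of oxidative phosphorylation were not called in the reported fit, but most were called with the replicate block. Of 79 genes of oxidative phosphorylation, 24 were lower in pDC and 7 were higher, with a median of -0.24. With the replicate block 36 were lower and 10 were higher. The count of higher genes was 4 without cDC1 replicate 1 or 2, and the count of lower genes was 14 without cDC1 replicate 1 and 15 with scaling by library size only. Of 75 mitochondrial ribosomal proteins, 18 were lower (24.0%, beside 24.4% of all genes) and 3 were higher, with 7 higher and 28 lower with the replicate block, 1 higher without cDC1 replicate 2 or pDC replicate 2, and 11 lower without cDC1 replicate 3, without pDC replicate 2 or with scaling by library size only. Of 38 proteasome genes, 19 were lower and 2 were higher, with 29 lower with the replicate block and none higher without cDC1 replicate 1 or 2. Of 17 glycolysis genes, 11 were lower and 2 were higher. The hexokinase Hk3 stood at 198, 194 and 242 CPM in cDC1 and at 3.90, 1.27 and 6.30 CPM in pDC, a 55.2-fold difference, whereas Hk1 was 1.67-fold higher in pDC. The glucose transporter Slc2a3 stood at 174, 164 and 170 CPM in pDC and at 28.7, 22.4 and 28.3 CPM in cDC1.

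**Figure D5:**
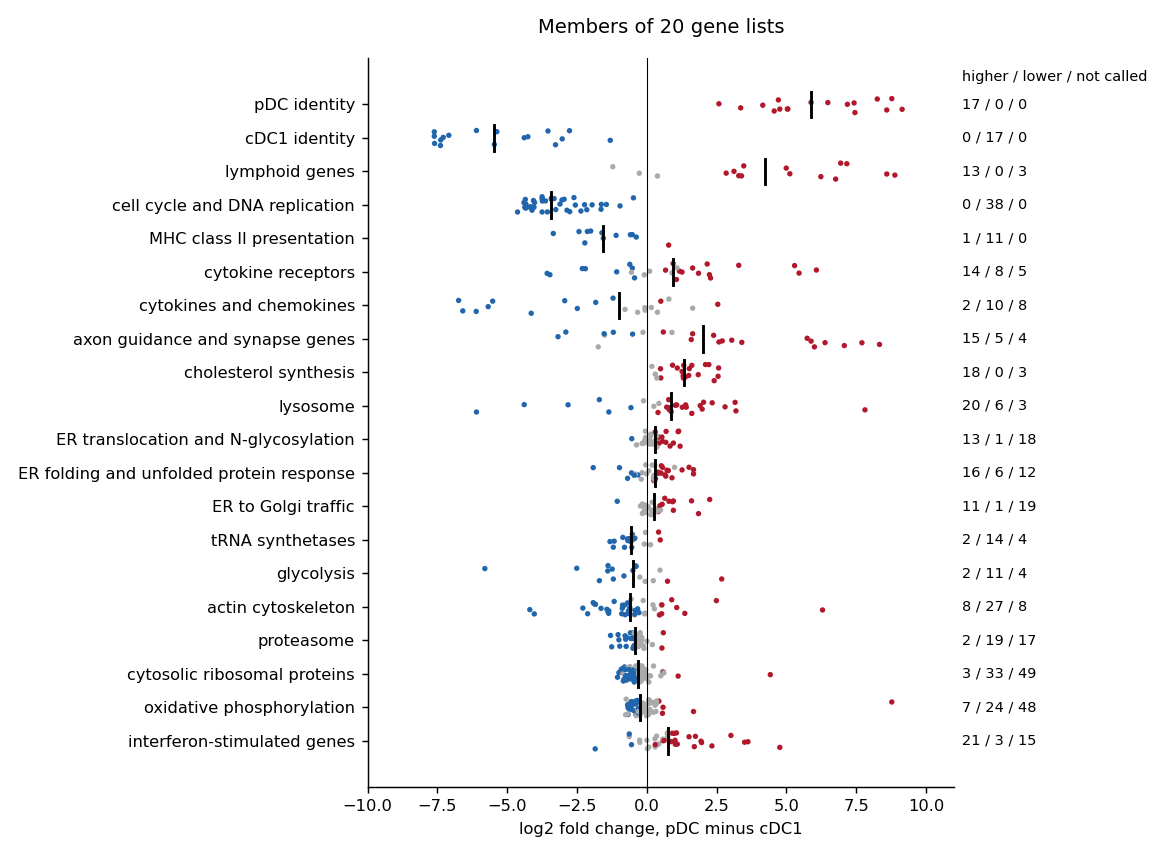
Each point is a member of 1 of 20 gene lists at its log2 fold change (pDC minus cDC1), red where it was called higher in pDC, blue where lower and grey where not called; black bars are list medians, and the numbers give the higher, lower and not called members. The identity, lymphoid and cell cycle lists lie far from 0, while the medians of the ER, ribosome and oxidative phosphorylation lists lie within 0.6 of it.

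Lysosomal genes were mostly higher in pDC. Of 29 tested, 20 were higher in pDC and 6 were lower. Ctsl (chr13:64359337-64370890), the cysteine protease cathepsin L, stood at 2456, 2389 and 2399 CPM in pDC and at 13.7, 7.55 and 11 CPM in cDC1 (log2 fold change 7.81 ± 0.31, adjusted p = 8.25e-08). Ctsb, cathepsin B, was high in both and stood at 5481, 5067 and 5624 CPM in pDC against 804, 706 and 815 CPM in cDC1. Ctsd and the cholesterol exporter Npc1 differed 8.92-fold and 9.11-fold.

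The 6 lower genes were headed by Naaa (chr5:92257659-92278170), an acid amidase, which stood at 3014, 3076 and 3880 CPM in cDC1 and at 52.1, 28.6 and 65.0 CPM in pDC. Ppt1, a thioesterase that removes palmitate, differed 20.9-fold and Gusb, a glucuronidase, 7.07-fold. Cst3, the secreted inhibitor of cysteine cathepsins, stood at 14984, 13897 and 14259 CPM in cDC1 and at 1200, 969 and 1199 CPM in pDC. Cathepsins B and L were higher in the subset in which this inhibitor was lower, and a relation between these levels was not tested. Grn, a lysosomal growth factor precursor, was 5.63-fold higher in pDC and Fth1, the ferritin heavy chain, 3.09-fold higher.

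Interferon-stimulated genes were more often higher than lower in resting pDC. Of 39 such genes, 21 were higher and 3 were lower, and 25 were higher and 5 lower with the replicate block. The median log2 fold change was 0.74. Bst2, an antiviral tether named in the gate, had the largest difference. It is counted among the 21, although because of that gate it is no finding. Oasl2 stood at 60.9, 70.6 and 81.2 CPM in pDC and at 4.41, 4.46 and 8.74 CPM in cDC1, and Ifi44 differed 8.06-fold. Irf7, the factor that drives interferon genes in pDC, stood at 442, 506 and 621 CPM in pDC and 111, 121 and 176 CPM in cDC1. Several classical members were low in both, among them Ifit1, at 2.78, 3.14 and 0.884 CPM in pDC and 1.97, 1.79 and 1.83 CPM in cDC1, with 24.4 CPM in cDC2. Ifit1 was called higher without pDC replicate 3 (log2 fold change 0.66) and without replicate 3 in either subset (0.61). Rsad2, which encodes viperin, stood at 13.1, 14.3 and 46.4 CPM in pDC, of which the highest is replicate 3, and at 5.68, 4.55 and 4.27 CPM in cDC1.

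Of 14 genes for interferon-induced GTPases of the GBP and IRG families, 8 were higher in pDC and 3 were lower. Gbp6 stood at 31.8, 31.6 and 42.4 CPM in pDC and at 0.401, 0.125 and 0.609 CPM in cDC1. Gbp2 went the other way, at 5.72, 3.5 and 8.78 CPM in pDC and 37.4, 26.3 and 26.1 CPM in cDC1, and Tgtp1 differed 24.7-fold in the same direction. The members of this family are close paralogs, so their single values are uncertain.

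The promoters of Bst2, Rsad2 and Gbp2 are printed to show the interferon element, which is GAAA, any 2 bases and GAAA again, in genes that went opposite ways. Capitals mark its matches on either strand, in the same window and build as above. They lie at chr8:71537423-71537722 on the minus strand, chr12:26456403-26456702 on the minus strand and chr3:142620413-142620712 on the plus strand.
Bst2: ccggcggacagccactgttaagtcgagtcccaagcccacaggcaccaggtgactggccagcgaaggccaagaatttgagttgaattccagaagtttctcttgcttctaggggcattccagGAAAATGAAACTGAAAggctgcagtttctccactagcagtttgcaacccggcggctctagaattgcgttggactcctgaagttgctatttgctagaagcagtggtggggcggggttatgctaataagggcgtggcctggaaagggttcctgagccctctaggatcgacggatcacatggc
Rsad2: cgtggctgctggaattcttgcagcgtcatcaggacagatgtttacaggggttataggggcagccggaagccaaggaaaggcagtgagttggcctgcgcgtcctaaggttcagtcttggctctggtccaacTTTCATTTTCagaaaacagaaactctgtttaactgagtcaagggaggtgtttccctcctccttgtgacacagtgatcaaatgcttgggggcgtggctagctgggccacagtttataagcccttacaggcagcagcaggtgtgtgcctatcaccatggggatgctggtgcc
Gbp2: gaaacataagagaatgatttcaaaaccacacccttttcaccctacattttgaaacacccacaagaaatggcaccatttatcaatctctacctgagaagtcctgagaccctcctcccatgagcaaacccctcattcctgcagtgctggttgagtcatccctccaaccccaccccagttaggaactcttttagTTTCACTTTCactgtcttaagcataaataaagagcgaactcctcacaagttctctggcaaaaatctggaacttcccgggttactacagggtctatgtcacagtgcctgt
Bst2 held 2 overlapping matches, which begin 130 and 124 bases before the start of the gene, while Rsad2 held 1 match at 120 and Gbp2 held 1 match at 59 bases before the start. The element was found in 15 of the 29 interferon-stimulated genes with a promoter in the table (51.7%), in 9 of 9 GBP and IRG genes and in 3.99% of all genes. The letters can overlap those of the ETS-IRF element, which was found in 3.16% of all genes. Of the 15 interferon-stimulated genes with the element, 7 were higher in pDC, 1 was lower and 7 were not called, with a median log2 fold change of 0.74. Bst2, which the gate names, is among the 7 higher genes. Of the 14 without it, 10 were higher and 1 was lower, with a median of 0.82. Genes that carried these letters therefore did not have larger differences as a group, and this is a description without a test.

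Receptors and guidance molecules known from neurons distinguished the subsets. Of 24 genes of axon guidance and synapses, 15 were higher in pDC and 5 were lower, with a median log2 fold change of 2.01. Epha2, an ephrin receptor, stood at 217, 233 and 197 CPM in pDC and at 1.20, 1.21 and 0.542 CPM in cDC1. Sema4b differed 133-fold and Ephb2 69.3-fold. Robo3, a receptor of the roundabout family, stood at 11.2, 11.5 and 11.9 CPM in pDC and did not exceed 3 counts in any cDC1 library, so it was at least 79.1-fold higher in pDC. Sema4a was 7.46-fold lower in pDC. The count of 5 lower genes was 2 without cDC1 replicate 1 and 3 without pDC replicate 2 or with scaling by library size only.

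Notch receptors were exchanged. Notch1 stood at 257, 281 and 199 CPM in pDC and at 13, 13.3 and 7.45 CPM in cDC1, and Notch3 differed 39.6-fold. Notch4 was the reverse, at 146, 161 and 107 CPM in cDC1 and 2.21, 1.52 and 0.118 CPM in pDC. Notch2, which splenic conventional DC need, was not called, at 203, 208 and 167 CPM in pDC and 241, 259 and 208 CPM in cDC1. It was called lower with the replicate block (log2 fold change -0.29, adjusted p = 0.00558 in edgeR) and without cDC1 replicate 3 (-0.41). The Notch target Hes1 was 20.1-fold lower in pDC. Of the 16 genes of this pathway tested, 7 were higher in pDC, 5 were lower and 4 were not called.

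Of 21 C-type lectins and Fc receptors, 5 were higher in pDC (23.8%, beside 24.3% of all genes) and 9 were lower, or 5 lower with 10 counts required in every library. Clec10a, a lectin for galactose and N-acetylgalactosamine, stood at 537, 544 and 667 CPM in pDC and at 4.01, 1.92 and 5.89 CPM in cDC1. Cd209a and Cd209d, relatives of human DC-SIGN, differed 18.2-fold and 33.5-fold. Cd207, which encodes langerin, and Ly75, which encodes DEC-205, were 176-fold and 41.7-fold lower in pDC. Of 27 Siglecs and paired receptors, 13 were higher and 5 were lower. Lair1, an inhibitory collagen receptor, stood at 1101, 1014 and 1073 CPM in pDC and at 28.2, 24.8 and 21.1 CPM in cDC1, while Havcr2, which encodes TIM-3, was 21.9-fold lower in pDC.

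Integrins and adhesion molecules were balanced, with 8 of 19 higher in pDC, 7 lower and a median log2 fold change of -0.03. Among them, Cdh1, which encodes E-cadherin, stood at 455, 458 and 406 CPM in pDC and at 2.29, 0.959 and 1.08 CPM in cDC1. Actin genes were mostly lower. Of 43 actin cytoskeleton genes, 27 were lower and 8 were higher, with a median log2 fold change of -0.61. Tmsb4x, the actin-binding thymosin beta 4, stood at 23198, 21576 and 18946 CPM in cDC1 and at 4881, 3602 and 4521 CPM in pDC. Fscn1, which bundles actin in dendrites, was 16.3-fold lower in pDC and Actb 2.70-fold lower. Among the 8 higher genes, the capping protein Capg stood at 178, 195 and 207 CPM in pDC and at 2.99, 1.08 and 3.52 CPM in cDC1, and Rac2, the GTPase of blood cells, differed 5.63-fold.

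Of 46 Rab GTPases, which direct vesicle traffic, 10 were higher in pDC (21.7%, near the 24.3% of all genes) and 19 were lower (41.3%). Rab43 stood at 1412, 1400 and 1492 CPM in cDC1 and at 140, 106 and 148 CPM in pDC, and Rab32 differed 28.3-fold in the same direction. Rab6b and Rab33b, of Golgi traffic, were 15.1-fold and 5.72-fold higher in pDC. Of 65 ion channel genes, 20 were higher (30.8%, beside 24.3% of all genes) and 21 were lower (32.3%, beside 24.4%). With 10 counts required in every library, 12 were higher and 10 were lower. Hvcn1, the proton channel that supports the oxidative burst, stood at 762, 724 and 771 CPM in pDC and at 25.5, 15.2 and 15.5 CPM in cDC1, while Trpm2 was 71.8-fold lower in pDC.

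Large gene families differed in how often they were called, beside 24.3% higher and 24.4% lower of all genes. Of 209 solute carriers, 62 were higher in pDC (29.7%) and 56 were lower (26.8%). Of 303 Zfp zinc finger genes, 59 were higher (19.5%) and 25 were lower (8.25%), with a median log2 fold change of 0.22. Of 1801 uncharacterised Gm and Rik genes, 278 were higher (15.4%) and 314 were lower (17.4%).

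Some genes were close to absent from one subset. With no more than 3 counts in each cDC1 library and at least 1 CPM in every pDC library, 107 genes (68 of them protein coding) were found, of which Myh13, a myosin heavy chain of extraocular muscle, was counted 0 times in cDC1 and stood at 21.2, 48.6 and 13.9 CPM in pDC, at least 191-fold higher. Il17rb, the receptor for IL-25, was at least 179-fold higher, at 23.9, 27.6 and 26.9 CPM in pDC. The adenylate cyclase Adcy5, the urate transporter Slc22a12 and the parathyroid factor Gcm2 were at least 90.7-fold, 108-fold and 93.3-fold higher. The floor for these bounds is 3 counts per library, averaged over the subset.

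In the other direction, 55 genes (48 protein coding) were close to absent from pDC. Mpzl2, an adhesion protein, stood at 21.9, 19.0 and 26.0 CPM in cDC1, at least 159-fold higher than in pDC. Tmem27, a relative of the angiotensin-converting enzyme family, was at least 100-fold higher, and Ifnlr1, the receptor chain for interferon lambda, at least 35.2-fold higher, at 5.54, 6.13 and 3.12 CPM in cDC1. The count of 55 rose to 154 without pDC replicate 1, the deepest library.

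Other genes were held within a narrow range. For 1441 genes (10.4%) the 95% interval of the log2 fold change lay within 0.5 of 0, and with the replicate block this held for 2338 genes. The mitochondrial mt-Co1 stood at 13380, 12111 and 15576 CPM in pDC and at 13486, 12994 and 15298 CPM in cDC1. The elongation factor Eef2 differed by -0.12 ± 0.09 on the log2 scale, the G protein subunit Gnai2 by -0.03 ± 0.09 and the lysosomal membrane protein Laptm5 by 0.18 ± 0.12. With the replicate block Laptm5 was called higher in pDC (adjusted p = 0.0167 in edgeR), so a narrow interval does not mean that a gene was never called. The groups overlapped for all 4 genes.

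Markers of other cells and of handling were examined for the same 6 libraries. None of 7 NK cell, 5 neutrophil or 7 erythroid markers was called, although 1 NK cell marker was higher with the replicate block, and of 7 T cell markers only the adaptor Lat was higher in pDC. Of 12 monocyte and macrophage markers, Ly6c2, which pDC express, was the single one higher in pDC, and 4 were higher and 2 were lower with the replicate block. Lyz2 stood at 176, 48.9 and 302 CPM in pDC and at 359, 255 and 373 CPM in cDC1, and C1qa at 16.8, 4.05 and 25.0 CPM and at 11.4, 3.79 and 13.8 CPM. Replicate 2 was the lowest in both subsets. Lyz2 was called lower in pDC with the replicate block (log2 fold change -1.13, adjusted p = 0.024 in edgeR) and without pDC replicate 3 (-1.54). Without pDC replicate 2, 4 of these markers were higher in pDC.

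Immediate-early and heat-shock genes, which respond to the handling of cells, gave 4 of 10 lower in pDC and none higher. With the replicate block 8 were lower and 1, Jun, was higher (log2 fold change 0.80, adjusted p = 0.00186 in edgeR). Without pDC replicate 3, 8 were lower, and without cDC1 replicate 3, 1 was higher. Atf3 stood at 2.15, 0.558 and 14.6 CPM in pDC and at 48.5, 33.6 and 198 CPM in cDC1, and Fos at 410, 344 and 1208 CPM and at 945, 463 and 1924 CPM. Replicate 3 was the highest in both subsets for these genes and for mt-Rnr2, a mitochondrial ribosomal RNA, which stood at 1922, 1963 and 5225 CPM in pDC and at 511, 334 and 1293 CPM in cDC1. Fos was called lower in pDC with the replicate block (log2 fold change -0.78, adjusted p = 0.00477 in edgeR) and without pDC replicate 3 (-1.56), and the higher call of mt-Rnr2 was lost without cDC1 replicate 1 (1.90). The part of handling or of other cells in the differences above was not tested.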

How the data were processed

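RNA from sorted splenic DC was sequenced in 9 libraries, 3 from each subset. The authors deposited raw read counts per gene. The submitters' processing notes name STAR, SAMtools, featureCounts, MultiQC and mm10, with versions not given in the sources used here, and reads shared between near-identical genes could lower the counts of both.

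Counts were tested with edgeR 4.0.16 in R 4.3.3 (TMM scaling, filterByExpr with a minimum count of 10, quasi-likelihood test, Benjamini-Hochberg adjustment over 13819 genes, threshold 0.05). All 9 libraries shared 1 estimate of the spread, and the contrast was pDC minus cDC1. The fit was tested on simulated data with 200 of 13819 genes changed. Of these, 118 (59%) were recovered, 73% of those changed 4-fold, and 4.84% of the calls were false. The deposited libraries gave 6718 called genes, so these rates are given for the smaller number only. The rate of recovery or of false calls with so many genes differing was not tested. Alternatives were a replicate block, DESeq2 1.42.0, limma 3.58.1, other scalings and filters, the 6 libraries alone, each library left out and each pair left out. The block rests on the date code that same-numbered libraries share in the labels. Their deviations from the subset means correlated at 0.304, 0.455 and 0.433 over genes.

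The members and gene lists were chosen with earlier results of these data known. Named genes were taken from these lists, from the 12 largest differences in each direction on the log2 and CPM scales, from genes near absent from 1 subset and from genes with a narrow interval. Genes on the lists but not tested were left out of counts. Values of some list members are not reported here. Promoters came from RefSeq (GRCm38.p6) and coordinates from GENCODE M21. Python 3.11.15, pandas 2.3.3 and matplotlib 3.10.9 were used for tables and plots.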

Additional observations from a re-analysis of the deposited data

How the results depend on the processing

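No called difference of a named gene changed direction under any alternative run. The count of genes called, 6718 in the reported fit, was 8094 with the replicate block (4038 higher and 4056 lower in pDC), 7158 with DESeq2, 6866 with limma and 6326 with the 6 libraries alone, and 5618 to 7106 with 1 library left out (2769 to 3554 higher, 2849 to 3552 lower). Without a whole pair, the count was 4821 (replicate 1), 4854 (replicate 2) and 7072 (replicate 3). Scaling by library size only gave 55.8% of calls higher in pDC, against 49.9%. With a difference of at least 2-fold required as well, 4063 genes remained called (2105 higher and 1958 lower). Genes near absent from cDC1 numbered 107, and 252 with a floor of 10 counts, and 114 to 153 with 1 library left out. Genes near absent from pDC numbered 55, and 144 with that floor, and 56 to 154 with 1 library left out. Because the rule asks for every library, a library left out or a higher floor can only keep or raise these counts. Genes with a narrow interval numbered 1441, and 2338 with the replicate block. The cause of the other changes was not tested. Of 994 named genes tested, the replicate block ended 3 calls and added 117, DESeq2 ended 0 and added 19, and limma ended 11 and added 16. Among single genes given with values in the text, the block changed no calls other than those stated beside them. It moved the counts of further lists by no more than 1.5 times. Examples are ER translocation from 13 to 19 higher, ER folding from 16 to 22, chemokine receptors from 8 to 10 and lymphoid genes from 13 to 12. Depth limits genes near the floor of 3 counts.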

Other observations

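Markers of cDC2 went both ways. Of 8 such markers, 4 had a higher level in pDC than in cDC1, 2 had a lower one and 2 were not called, with a summed level of 1620 to 1780 CPM in pDC, 1650 to 1800 CPM in cDC2 and 85.9 to 145 CPM in cDC1. Sirpa, an inhibitory receptor used to tell the conventional subsets apart, was among the higher genes (log2 fold change 3.11). Esam, an adhesion molecule of cDC2, was among the lower genes (log2 fold change -3.32). The 2 lower genes were 25% of the list, beside 24.4% of all genes. With 10 counts required in every library, the count of lower genes was 0.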
